A study of Homo sapiens with 6 samples.

Results

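The 32 genes described are p53 targets, chosen by symbol as regulators and direct targets of p53 without the BCL2 family, and measured in leukaemia cells treated with UC-764864. The cells were MOLM-13, an established line grown from a patient with acute myeloid leukaemia and resembling monocytes. All 32 have a row among the 56638 rows of the deposited count table. Of these, 29 had enough counts to be tested and 3 (PERP, TP53I3 and SPATA18) did not. The UC-764864 group, libraries UDI0051, UDI0052 and UDI0053, came from cells given 2 µM of the compound, which the series title calls an inhibitor of the ubiquitin-conjugating enzyme UBE2N. The DMSO group, libraries UDI0054, UDI0055 and UDI0056, came from cells given the solvent. Both groups were collected after 24 h in serum-supplemented RPMI medium, and poly(A) RNA was sequenced. All libraries come from 1 cell line, and nothing in the labels says that the 3 libraries of a group were separate cultures, so p-values measure the spread between these libraries only.

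The tumour suppressor p53 is a transcription factor. In unstressed cells MDM2, a ubiquitin ligase, and its relative MDM4 keep it scarce or masked, and both answer to p53 in turn, so that its activity is held in a feedback loop. DNA damage, ribosome stress or oncogene signals release it, and it then raises genes of cell cycle arrest, DNA repair, death receptor signalling, antioxidant defence and autophagy.

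Short promoter stretches of 4 of these genes are printed because a script found the p53 motif in them. The search used RefSeq promoters of build GRCh38.p14, from 250 bases before to 50 bases after the start of a gene. The 10-base p53 motif reads the same on both strands, and a pair of copies with up to 13 bases between them and at most 2 mismatches outside the 4 central bases of each was counted as a full p53 response element. Promoters matched 24 of the 32 genes, C12orf5 under its later symbol TIGAR, and FBXO22, GADD45A, RRM2B, TNFRSF10A, TNFRSF10B, PHLDA3, CMBL and TP53INP1 were not matched. An exact 10-base copy stood in 4 of the 24 (16.7%), against 6.54% of 27305 promoters searched, and a full element stood in 1 of the 24 (4.17%), against 1.47%. Sequence beyond these promoters was not searched, so a gene without a match may still hold an element elsewhere. Capitals mark the motif, which is a match of letters and no measure of binding. AEN holds the full element, with 2 mismatches, within its printed stretch (chr15:88621286-88621345 on the plus strand). A single copy stands within the printed stretches of FDXR (chr17:74872976-74873025), PLK2 (chr5:58460189-58460238) and RPS27L (chr15:63157507-63157556), all on the minus strand.
AEN: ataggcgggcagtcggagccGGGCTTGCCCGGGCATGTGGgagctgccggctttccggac
FDXR: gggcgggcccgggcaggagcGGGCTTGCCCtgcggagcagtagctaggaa
PLK2: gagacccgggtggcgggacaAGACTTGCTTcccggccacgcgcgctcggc
RPS27L: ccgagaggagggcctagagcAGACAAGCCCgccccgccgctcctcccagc
CCNG1, the member with the smallest p in the comparison, has no such match in its window (chr5:163437321-163437620, plus strand), which is shown in full without capitals.
CCNG1: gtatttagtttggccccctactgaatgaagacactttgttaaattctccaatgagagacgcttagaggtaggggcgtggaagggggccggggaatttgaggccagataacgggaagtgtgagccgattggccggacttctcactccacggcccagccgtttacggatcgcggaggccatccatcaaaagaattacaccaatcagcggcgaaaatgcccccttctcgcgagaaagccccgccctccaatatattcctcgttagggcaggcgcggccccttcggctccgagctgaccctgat

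The p53 targets that changed were all lower after UC-764864. In that comparison, 5 of the 29 tested genes fell (17.2%), where 8.13% of all 13490 tested genes fell, and 0 rose, where 5.11% of all tested genes rose (edgeR quasi-likelihood test with Benjamini-Hochberg adjustment, adjusted p under 0.05). The genes that fell were CCNG1, TP53INP1, FAS, GDF15 and RRM2B. GDF15 passed the filter on low counts through the DMSO libraries alone, and without it 4 of 28 (14.3%) fell. At an unadjusted p under 0.05, 10 members were lower and 2, XPC and AEN, were higher, against 16.6% and 14.9% of all tested genes. DESeq2 called 9 lower and 1, XPC, higher, where it called 10.2% of all genes lower and 6.35% higher. Both of these counts of lower members include GDF15. The median log2 fold change of the 29 was −0.18, that of all tested genes 0.01, and 17 of the 29 lay below 0. In bulk RNA, fewer cells with a transcript and less of it per cell cannot be told apart.

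The UC-764864 libraries all lay below the DMSO libraries for 10 members: the 5 that fell and CDKN1A, BTG2, ZMAT3, SESN1 and CMBL. That is 34.5% of the 29, beside 17.0% of all tested genes. It counts GDF15, which was tested only because of its DMSO counts. They all lay above them for 3 members, XPC, DDB2 and TNFRSF10A, which is 10.3% beside 19.0%. The other 16 members overlapped between the groups.

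**Figure D1:**
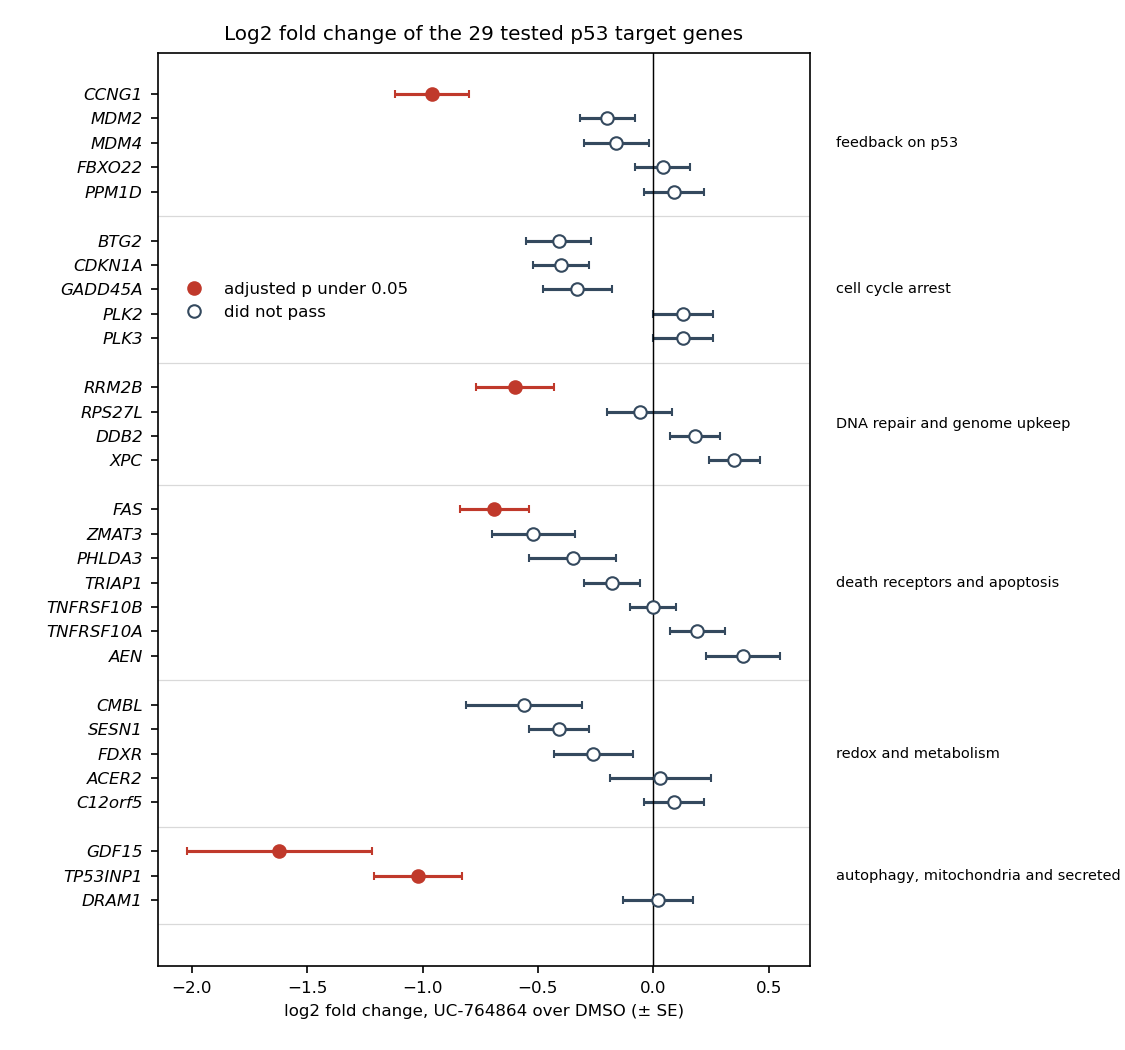
Log2 fold change of UC-764864 over DMSO with its standard error (horizontal axis) for the 29 tested p53 targets, grouped by role. Filled red points are the 5 genes with an adjusted p under 0.05, all to the left of 0, from GDF15 at −1.62 to RRM2B at −0.60. Open points did not pass and run from CMBL at −0.56 to AEN at 0.39.

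Rows of X, Y, mitochondrial and some chromosome 22 genes stand at 0 in DMSO library UDI0055 and were left out, 3799 rows with none of the 32 among them. UDI0052 of the UC-764864 group and UDI0056 of the DMSO group had the smallest share of counts in genes of at least 60% GC, 8.55% and 8.86%, against 10.5% to 12.2% in the other 4. Total counts ran from 17073654 to 25014437 in UC-764864 libraries and from 16136156 to 24511499 in DMSO libraries, and 3 counts equal 0.123 to 0.198 CPM, the unit used throughout, which scales counts to a common library size. The TMM scaling factors spanned 0.978 to 1.03. Of 15 monocytic leukaemia markers 14, all but CD14, had over 3 counts in every library. CD14 lay at 0.198 to 0.474 CPM and CD68 at 0.286 to 0.721 CPM. The 15 summed to 8078 to 8496 CPM in UC-764864 and 5901 to 6453 CPM in DMSO libraries. LYZ alone carried that difference, and the sums without it were 2164 to 2752 CPM in UC-764864 and 2606 to 3292 CPM in DMSO libraries. The UC-764864 libraries all lay above the DMSO libraries for LYZ and CD33 and all below them for CSF1R, ITGAM, HOXA9, MEIS1 and CEBPA, while the other 8 overlapped, and the part of these markers in the results below was not tested. Markers of other lineages were low or shared with monocytes: of 10 lymphoid markers CD3G, MS4A1 and CD2 were at 0 and the sums of 256 to 278 CPM in UC-764864 and 258 to 314 CPM in DMSO libraries came almost wholly from CD4. The 9 erythroid and megakaryocyte markers summed to 18.4 to 25.6 CPM in UC-764864 and 22.2 to 25.7 CPM in DMSO libraries, nearly all EPOR, with HBA1, HBA2, PF4 and PPBP at 0, and the 11 stromal and epithelial ones to 19.5 to 20.7 CPM in UC-764864 and 19.7 to 22.3 CPM in DMSO libraries, mostly KRT18, with COL3A1, DCN and KRT19 at 0.

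Among 5 tested genes that feed back on p53, with a median log2 fold change of −0.16, 1 fell, CCNG1. Cyclin G1, its product, recruits a phosphatase that activates MDM2. CCNG1 had 97.8, 129 and 119.9 CPM in UC-764864 libraries UDI0051, UDI0052 and UDI0053, against 212, 184 and 280 CPM in DMSO libraries UDI0054, UDI0055 and UDI0056. Every UC-764864 library lay below every DMSO library, and the highest value of each group was in its library with few GC-rich counts. The gene averaged 115 ± 15.9 CPM under UC-764864 and 225 ± 49.4 CPM under DMSO (SD, n = 3 each), 1.95-fold lower, with a log2 fold change of −0.96 ± 0.16 (SE) and an edgeR adjusted p of 0.00647. The call held in each of the 6 fits that left out 1 library (adjusted p from 0.000847 to 0.0271).

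The 2 chief inhibitors of p53 did not pass. MDM2, the ubiquitin ligase, had 80.4, 93.9 and 82.9 CPM in UC-764864 libraries, against 97.3, 87.3 and 110.4 CPM in DMSO libraries, and UDI0052 lay above UDI0055. Its log2 fold change was −0.20 ± 0.12 (edgeR adjusted p = 0.302). MDM4, which covers the activation domain of p53, had 56.9, 62.1 and 53 CPM in UC-764864 libraries, against 71.1, 50.9 and 69.7 CPM in DMSO libraries. The lowest MDM4 value of all was that of the DMSO library UDI0055, and the log2 fold change was −0.16 ± 0.14 (adjusted p = 0.49). PPM1D, the phosphatase WIP1, and FBXO22, a ligase receptor for methylated p53, did not pass either. PPM1D averaged 28.6 ± 1.83 CPM under UC-764864 and 26.9 ± 3.37 CPM under DMSO, a log2 fold change of 0.09 ± 0.13 (adjusted p = 0.664). FBXO22 averaged 42.5 ± 2.68 CPM under UC-764864 and 41.3 ± 2.22 CPM under DMSO, a log2 fold change of 0.04 ± 0.12 (adjusted p = 0.838). Where exons overlap, reads of MDM2 and FBXO22 cannot be told apart from those of the carboxypeptidase M gene and NRG4 on the opposite strand, because the sources do not say whether strand was used in counting.

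**Figure D2:**
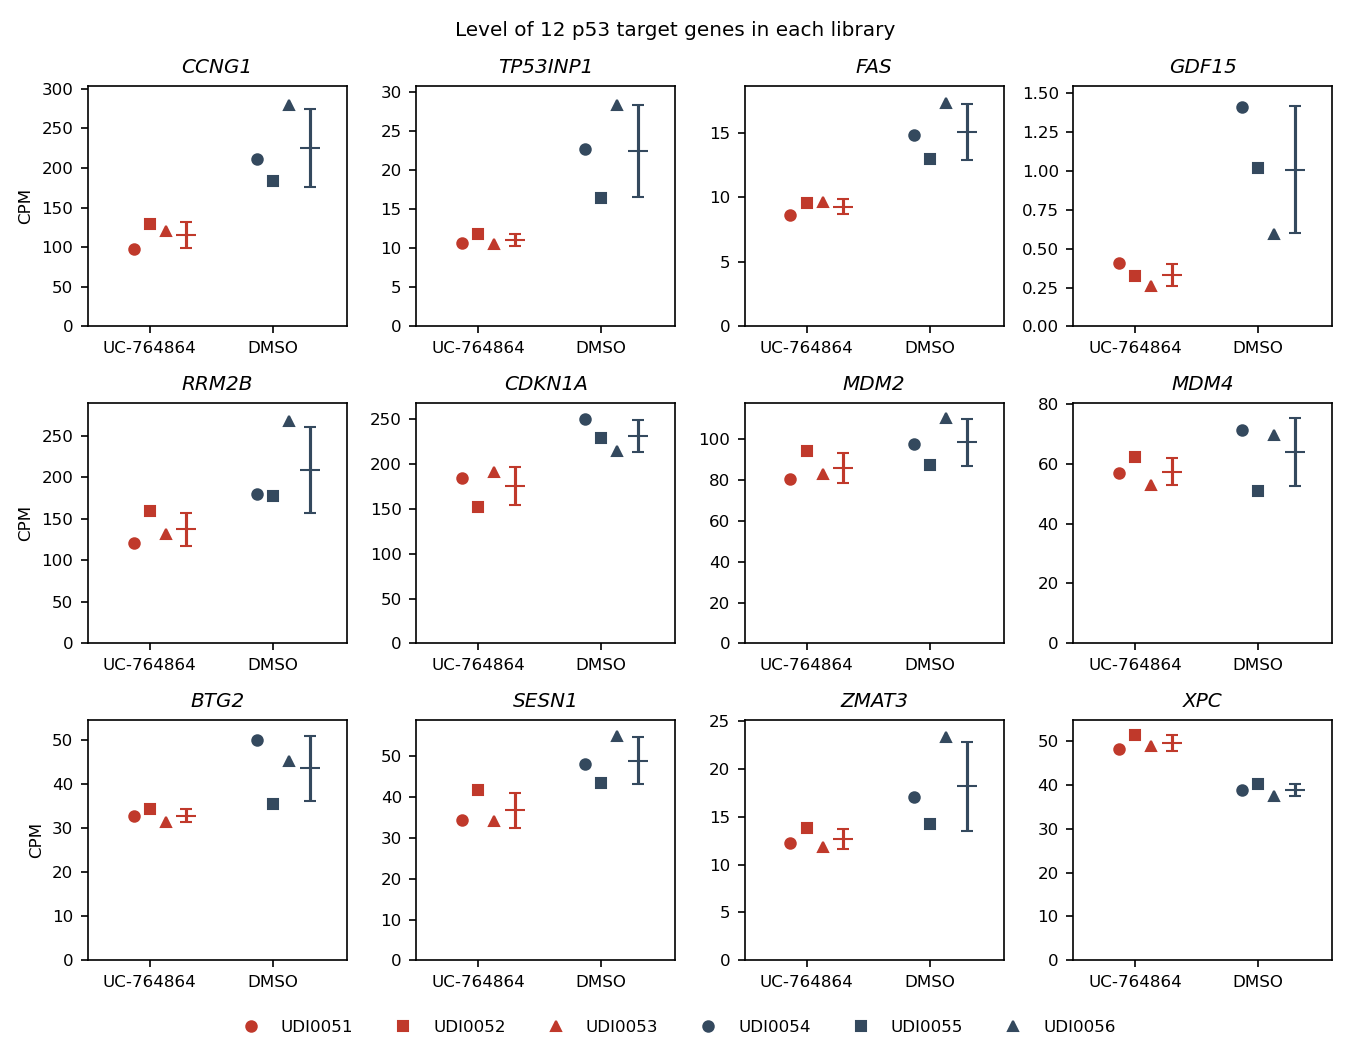
Level in CPM (vertical axis, from 0) of 12 p53 targets in each of the 3 UC-764864 libraries (red, left) and 3 DMSO libraries (grey, right), with the group mean and SD beside the points. CCNG1, TP53INP1, FAS, GDF15 and RRM2B show no overlap between groups, MDM2 and MDM4 do overlap, and XPC is the 1 panel in which the UC-764864 libraries lie higher.

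Genes of cell cycle arrest gave 0 calls among 5 in the edgeR test (median log2 fold change −0.33), with 2 lower and 0 higher at an unadjusted p under 0.05; DESeq2 called both. CDKN1A encodes p21, the inhibitor of cyclin-dependent kinases through which p53 halts cells in G1. It had 184, 152 and 191 CPM in UC-764864 libraries, against 250.4, 229 and 215 CPM in DMSO libraries, without overlap. CDKN1A averaged 176 ± 20.9 CPM under UC-764864 and 232 ± 17.6 CPM under DMSO, and the log2 fold change of −0.40 ± 0.12 lay just short of the threshold (edgeR adjusted p = 0.052). CDKN1A did pass under RLE scaling (adjusted p = 0.0405), scaling by library size alone (0.0336), no low-count filter (0.0266) and DESeq2 (0.0137), and once the GC trend described below was removed (0.000475). It did not pass without UDI0051, UDI0052, UDI0053 or UDI0054 (0.159, 0.116, 0.0981 and 0.187) or with the rows at 0 kept as counts (0.08). BTG2, an antiproliferative cofactor, had 32.8, 34.4 and 31.5 CPM in UC-764864 libraries, against 50.1, 35.5 and 45.3 CPM in DMSO libraries. The groups came close at UDI0052 and UDI0055 without overlapping, and the log2 fold change was −0.41 ± 0.14 (adjusted p = 0.0747). GADD45A, a growth arrest and damage response gene, was at −0.33 ± 0.15 (adjusted p = 0.172), with 7.75 ± 0.803 CPM under UC-764864 and 9.70 ± 1.30 CPM under DMSO. The polo-like kinase genes PLK2 and PLK3, which act at checkpoints and in stress responses, both stood at 0.13 ± 0.13 (adjusted p = 0.543 and 0.548). PLK2 averaged 16.0 ± 1.77 CPM under UC-764864 and 14.6 ± 0.485 CPM under DMSO, and PLK3 averaged 11.6 ± 0.814 CPM under UC-764864 and 10.6 ± 0.535 CPM under DMSO.

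Of 4 genes of DNA repair, with a median of 0.06, RRM2B fell and 0 rose; at an unadjusted p under 0.05 there was 1 higher, XPC, which DESeq2 called. RRM2B encodes the p53-inducible small subunit of ribonucleotide reductase, which supplies deoxynucleotides for repair. It had 121, 159 and 132 CPM in UC-764864 libraries, against 180, 177 and 268 CPM in DMSO libraries. No values overlapped, but UDI0056 stood far above the other DMSO libraries. RRM2B averaged 138 ± 19.6 CPM under UC-764864 and 208 ± 51.5 CPM under DMSO, 1.51-fold lower, at −0.60 ± 0.17 with an edgeR adjusted p of 0.0403. The call was lost without UDI0051, UDI0053, UDI0054 or UDI0056 (adjusted p = 0.163, 0.125, 0.0685 and 0.0714), and the log2 fold change was −0.37 without UDI0056. XPC and DDB2 encode damage sensors of nucleotide excision repair. XPC had 48.0, 51.4 and 48.9 CPM in UC-764864 libraries, against 38.7, 40.1 and 37.4 CPM in DMSO libraries, a log2 fold change of 0.35 ± 0.11 that did not pass (adjusted p = 0.0568). Its groups were well apart, with a spread of under 2 CPM (SD) in each. DDB2 averaged 72.4 ± 1.69 CPM under UC-764864 and 63.9 ± 3.22 CPM under DMSO (0.18 ± 0.11, adjusted p = 0.279), and its groups did not overlap. XPC exons overlap those of LSM3 on the opposite strand. RPS27L, a relative of the ribosomal protein RPS27 with which it can share reads, averaged 112 ± 9.97 CPM under UC-764864 and 116 ± 22.5 CPM under DMSO (−0.06 ± 0.14, adjusted p = 0.817).

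Of 7 tested genes of death receptor signalling and apoptosis, with a median of −0.18, 1 fell, FAS. FAS, the receptor for FAS ligand, had 8.65, 9.58 and 9.63 CPM in UC-764864 libraries, against 14.8, 13 and 17.3 CPM in DMSO libraries. All 3 treated values lay below 10 CPM and all 3 solvent values above, and FAS fell 1.61-fold (−0.69 ± 0.15, edgeR adjusted p = 0.0153). FAS averaged 9.29 ± 0.551 CPM under UC-764864 and 15 ± 2.19 CPM under DMSO. FAS did not pass when UDI0051, UDI0053 or UDI0054 was left out (adjusted p of 0.083, 0.0502 and 0.0531). ACTA2, whose exons overlap FAS on the opposite strand, had 54 to 133 counts per library, where FAS had 148 to 192 in UC-764864 and 263 to 335 in DMSO libraries. The TRAIL receptor genes TNFRSF10A and TNFRSF10B were at 0.19 ± 0.12 and 0.00 ± 0.10 (adjusted p = 0.292 and 0.991). TNFRSF10A averaged 46.7 ± 1.29 CPM under UC-764864 and 40.9 ± 3.50 CPM under DMSO. TNFRSF10B averaged 123 ± 5.45 CPM under UC-764864 and 123 ± 2.61 CPM under DMSO, with RHOBTB2 overlapping it on the opposite strand. The difference between the 3 receptors was not tested.

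Of the other genes of apoptosis, ZMAT3, an RNA-binding zinc finger gene, had the smallest p. It had 12.3, 13.8 and 11.8 CPM in UC-764864 libraries, against 17.0, 14.2 and 23.3 CPM in DMSO libraries, groups that UDI0052 and UDI0055 brought close together (−0.52 ± 0.18, edgeR adjusted p = 0.0728). AEN, an exonuclease of apoptotic DNA digestion, had the highest log2 fold change of the 29, 0.39 ± 0.16 (adjusted p = 0.121). AEN averaged 68.1 ± 9.03 CPM under UC-764864 and 51.8 ± 10.6 CPM under DMSO, and UDI0052 lay below UDI0055. PHLDA3, a repressor of AKT, and TRIAP1, an apoptosis inhibitor of the mitochondrial intermembrane space, did not pass. PHLDA3 averaged 14.3 ± 3.73 CPM under UC-764864 and 18.3 ± 2.81 CPM under DMSO (−0.35 ± 0.19, adjusted p = 0.232). TRIAP1 averaged 58.1 ± 5.82 CPM under UC-764864 and 65.7 ± 5.38 CPM under DMSO (−0.18 ± 0.12, adjusted p = 0.348). PERP, a membrane protein of desmosomes and apoptosis, had 1, 2 and 2 counts in UC-764864 libraries, against 10, 6 and 3 counts in DMSO libraries, too few to test. The UC-764864 libraries and DMSO library UDI0056 stood at or under the floor of 3 counts.

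Antioxidant and metabolic targets gave 0 calls among 5 tested (edgeR, median log2 fold change −0.26), with 2 lower and 0 higher at an unadjusted p under 0.05; DESeq2 called 1 of them, SESN1. SESN1, a sestrin that restrains mTORC1 and supports peroxide removal, had 34.4, 41.7 and 34.2 CPM in UC-764864 libraries, against 48.2, 43.6 and 55 CPM in DMSO libraries. The groups did not overlap, and the log2 fold change was −0.41 ± 0.13 (edgeR adjusted p = 0.0625). CMBL, a hydrolase, had 1.13, 1.36 and 1.00 CPM in UC-764864 libraries, against 1.94, 1.55 and 1.58 CPM in DMSO libraries (−0.56 ± 0.25, adjusted p = 0.147), a level of 19 to 44 counts. FDXR, the mitochondrial ferredoxin reductase, averaged 22.5 ± 3.64 CPM under UC-764864 and 26.9 ± 5.59 CPM under DMSO (−0.26 ± 0.17, adjusted p = 0.315). C12orf5, the glycolysis regulator TIGAR, averaged 10.7 ± 0.683 CPM under UC-764864 and 10.0 ± 0.451 CPM under DMSO (0.09 ± 0.13, adjusted p = 0.68). ACER2, a ceramidase of the Golgi, averaged 1.87 ± 0.225 CPM under UC-764864 and 1.85 ± 0.182 CPM under DMSO (0.03 ± 0.22, adjusted p = 0.939). TP53I3, a quinone oxidoreductase, had 5, 4 and 9 counts in UC-764864 libraries, against 6, 10 and 8 counts in DMSO libraries, and was not tested.

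Of 3 tested genes of autophagy, mitochondria and secreted signals, 2 fell, TP53INP1 and GDF15. Without GDF15, tested only because of its DMSO counts, it was 1 of 2. TP53INP1, a stress protein that promotes autophagy, had 10.7, 11.9 and 10.5 CPM in UC-764864 libraries, against 22.7, 16.4 and 28.3 CPM in DMSO libraries. The treated libraries lay within 2 CPM of each other, while the solvent libraries were spread widely above them. TP53INP1 averaged 11 ± 0.777 CPM under UC-764864 and 22.5 ± 5.94 CPM under DMSO, a 2.03-fold fall (−1.02 ± 0.19, edgeR adjusted p = 0.00869), and the call held in all 6 fits without 1 library (adjusted p from 0.00121 to 0.0353).

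GDF15, a secreted cytokine of the TGF-beta family and a common readout of p53 and of cell stress, was rare in these cells. It had 9, 5 and 5 counts in UC-764864 libraries, against 32, 25 and 9 counts in DMSO libraries, which is 0.406, 0.324 and 0.263 CPM against 1.41, 1.02 and 0.593 CPM. The groups did not overlap, but the lowest DMSO value, in UDI0056, was nearer to the UC-764864 values than to the highest DMSO value. GDF15 was 3.08-fold lower (−1.62 ± 0.40, edgeR adjusted p = 0.0246), the largest fold among the 29. Its call was lost without UDI0051, UDI0052, UDI0053 or UDI0054 (adjusted p from 0.0547 to 0.106). DRAM1, a lysosomal membrane protein of autophagy, averaged 20.0 ± 3.20 CPM under UC-764864 and 19.7 ± 1.59 CPM under DMSO (0.02 ± 0.15, adjusted p = 0.932). SPATA18, of mitochondrial quality control, had 1 count in UDI0056 and 0 in every other library.

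The members stood at very different levels. In CPM per kilobase of merged exons of GENCODE 29, averaged over the 6 libraries, CDKN1A was highest at 66.8, followed by CCNG1 at 55, TRIAP1 at 42.9, RRM2B at 31.2 and TNFRSF10B at 23.8. By group, CDKN1A stood at 57.7 after UC-764864 and 76.0 after DMSO, and CCNG1 at 37.3 after UC-764864 and 72.8 after DMSO, so that their order was the same in both groups and their levels were closer after DMSO. TRIAP1 stood at 40.3 after UC-764864, above CCNG1, and at 45.6 after DMSO, below it. MDM2, at 6.93, and MDM4, at 5.51, lay in the middle of the set. FAS and TP53INP1 stood at 2.86 and 2.95, and TP53I3, PERP and SPATA18 at 0.156, 0.0453 and 0.00222. The lengths come from an annotation of another build than the GRCh37 of the files and join all isoforms of a gene, which lowers genes with long ones in this ranking. MDM2, FBXO22, MDM4, ZMAT3 and RPS27L have the longest merged exons of the 32.

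**Figure D3:**
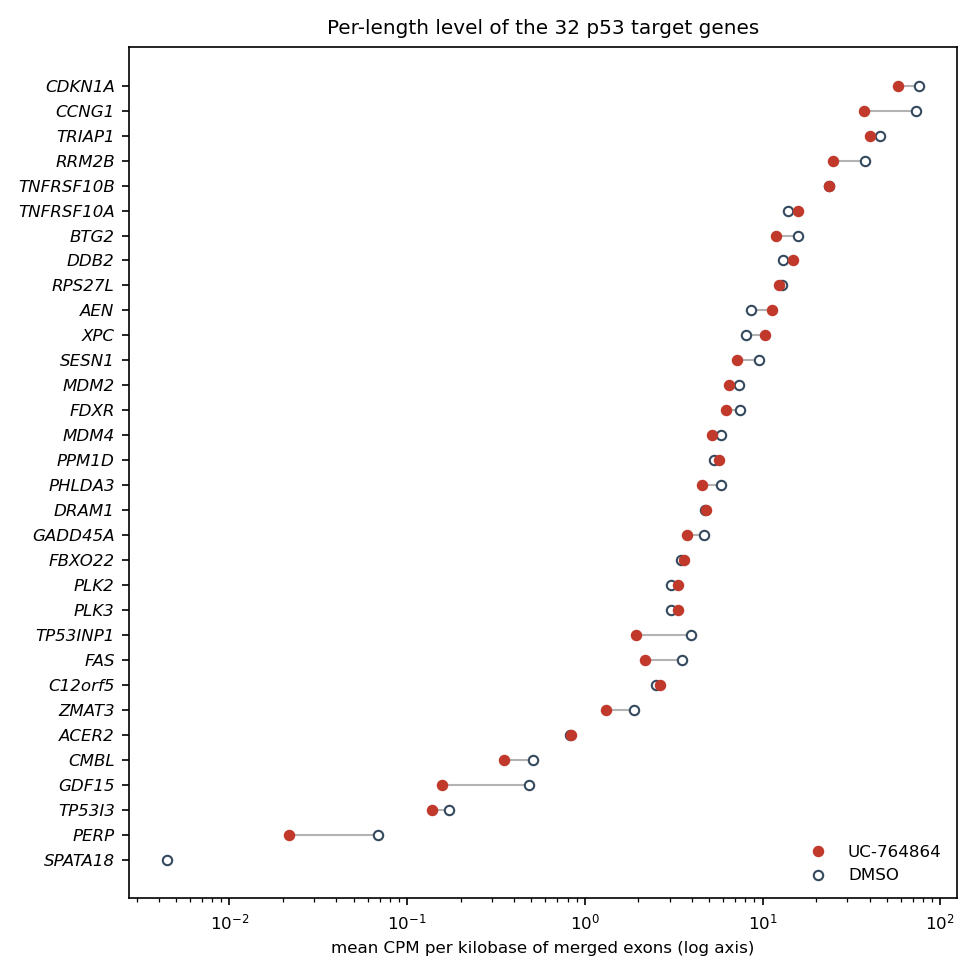
Mean level in CPM per kilobase of merged exons (log axis) after UC-764864 (red) and after DMSO (open) for the 32 p53 targets, ordered by the mean of the 6 libraries. CDKN1A and CCNG1 are at the top and SPATA18 at the bottom, where the UC-764864 mean is 0 and is not drawn; the longest distances between tested points are those of GDF15, TP53INP1 and CCNG1.

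Across all genes the fold changes went with the GC content of the transcripts. The GC content of the 5 genes that fell was 39.5% for TP53INP1, 39.5% for RRM2B, 39.8% for CCNG1, 42.1% for FAS and 60.2% for GDF15. Of all tested genes with a GC value, the 2450 under 42% GC had a median log2 fold change of −0.27 and 20.2% of them fell. In that range lay 7 members, of which 3 fell, with a median of −0.41. From 50% to 55% GC the median of 1900 genes was 0.17, and that of the 5 members there, among them XPC and DDB2, was 0.18. At 55% GC and over, 3816 genes had a median of 0.06 and 7 members a median of −0.33. Across the 29 members the correlation of log2 fold change with GC content was r = 0.073 (Spearman's rho 0.288), and across 12172 genes r = 0.191; genes share the libraries and are not independent.

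With each library's trend of counts on GC content removed by a loess fit, CCNG1, TP53INP1, FAS, GDF15 and RRM2B all passed, at −0.75, −0.78, −0.62, −1.69 and −0.36 (edgeR adjusted p = 7.44e-05, 0.000511, 0.00116, 0.00559 and 0.00362). In that fit 14 of the 29 members, GDF15 among them, fell and 0 rose, where 18.2% of all genes fell and 13.6% rose. At an unadjusted p under 0.05, 15 members were lower and 3 higher in that fit, for which the share of all genes at this threshold is not given. The members added at the adjusted threshold were CDKN1A (−0.51), BTG2 (−0.59), SESN1 (−0.30), ZMAT3 (−0.50), GADD45A (−0.45), PHLDA3 (−0.41), TRIAP1 (−0.24), CMBL (−0.71) and FDXR (−0.26). Their adjusted p ran from 0.000475 for CDKN1A to 0.046 for FDXR. XPC stood at 0.17 in that fit (adjusted p = 0.0774), DDB2 at 0.00 (0.971) and TNFRSF10A at 0.01 (0.924). Without UDI0052 and UDI0056, the 2 libraries with few GC-rich counts, 7 members fell, the same 5 with SESN1 and CDKN1A, where 8.98% of all genes fell and 4.07% rose.

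**Figure D4:**
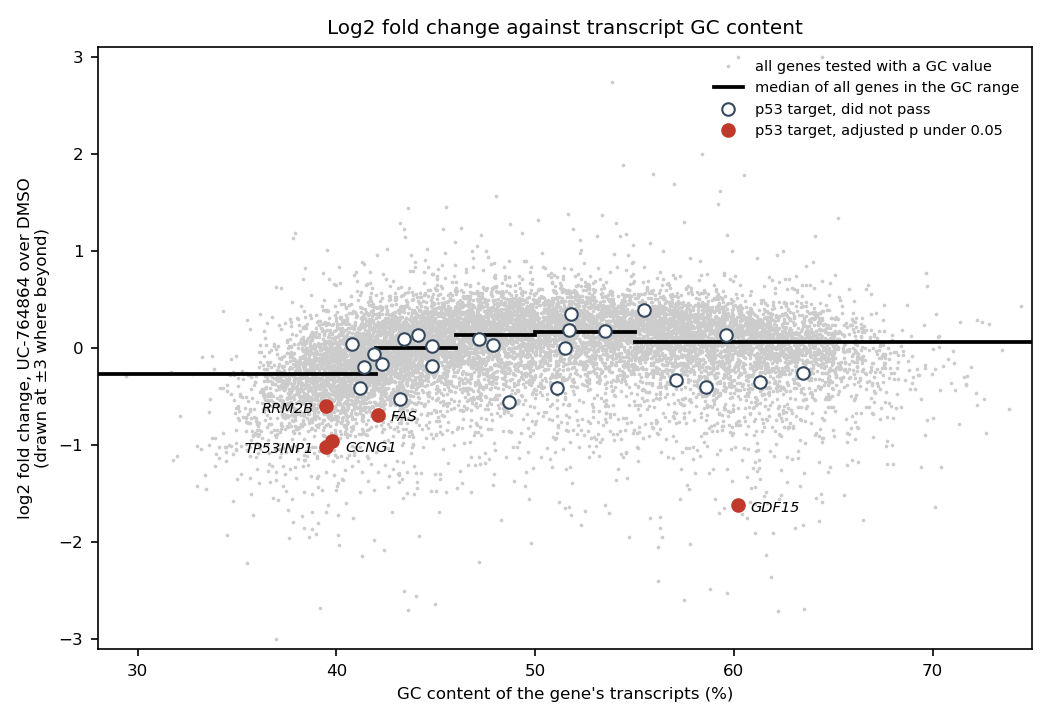
Log2 fold change of UC-764864 over DMSO (vertical axis) against the GC content of each gene's transcripts in percent (horizontal axis), for tested genes with a GC value (grey dots, drawn at ±3 where beyond), the 24 p53 targets that did not pass (open) and the 5 that fell (red). Black lines give the median of all genes in 5 GC ranges, from −0.27 under 42% to 0.17 between 50% and 55%; CCNG1, TP53INP1 and RRM2B lie below the line at low GC, and GDF15 lies far below it at 60.2%.

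Among genes that act on p53, more rose than fell. Of 35 tested genes among 37 p53 family members, kinases and cofactors, 6 rose and 2 fell (17.1% and 5.71%, against 5.11% and 8.13% of all tested genes), with a median of 0.12. PRKDC, the DNA-dependent protein kinase that phosphorylates p53 at strand breaks, rose to 1422 ± 42.3 CPM in UC-764864 libraries, against 968 ± 91.4 CPM in DMSO libraries (0.55 ± 0.11, edgeR adjusted p = 0.0103). PRMT5, an arginine methyltransferase of p53, rose to 199 ± 9.15 CPM in UC-764864 libraries, against 143 ± 7.54 CPM in DMSO libraries (0.48 ± 0.11, adjusted p = 0.0172). UBE2D3, an E2 enzyme that works with MDM2, fell to 219 ± 7.55 CPM in UC-764864 libraries, against 327 ± 29.4 CPM in DMSO libraries (−0.58 ± 0.11, adjusted p = 0.0103). RCHY1, the p53 ubiquitin ligase PIRH2, fell to 27.4 ± 2.48 CPM in UC-764864 libraries, against 46.5 ± 8.24 CPM in DMSO libraries (−0.76 ± 0.15, adjusted p = 0.0109). UBE2D3 and RCHY1 missed the threshold without UDI0051 (adjusted p = 0.0663 and 0.0566), PRKDC without UDI0051 or UDI0054 (0.0552 and 0.0509), and PRMT5 with UDI0051, UDI0053 or UDI0054 left out (0.116, 0.0576 and 0.0728). With the GC trend removed RCHY1 stood at −0.49 and PRMT5 at 0.30.

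A second list of published p53 targets, with no gene of the 32 and no BCL2 relative, had more falls than rises. Like the members and the list of genes that act on p53, it was chosen with earlier results of these data known. Of 96 listed, 74 were tested, and 10 fell and 2 rose (13.5% and 2.70%, against 8.13% and 5.11% of all tested genes), with a median of −0.13. RHOC, a small GTPase, had 4.55, 5.18 and 7.37 CPM in UC-764864 libraries, against 14.1, 9.65 and 14.5 CPM in DMSO libraries, and fell 2.23-fold (−1.15 ± 0.21, edgeR adjusted p = 0.00918). METTL7A, a methyltransferase-like protein of lipid droplets, averaged 18.1 ± 2.99 CPM under UC-764864 and 33.4 ± 3.65 CPM under DMSO, a 1.85-fold fall (−0.89 ± 0.15, adjusted p = 0.00655). The 2 that rose were VCAN, the matrix proteoglycan versican, which rose 2.71-fold (2.22 ± 0.214 CPM under UC-764864 and 0.813 ± 0.119 CPM under DMSO, adjusted p = 0.00647), and FUCA1, a lysosomal fucosidase, which rose 1.48-fold (42.8 ± 2.87 CPM under UC-764864 and 29 ± 1.00 CPM under DMSO, adjusted p = 0.0134). FUCA1 did not pass when UDI0051, UDI0053 or UDI0054 was left out (adjusted p of 0.0517, 0.0531 and 0.0628). The calls of RHOC, METTL7A and VCAN held in all 6 fits without 1 library. With the rows at 0 kept as counts VCAN alone passed of the 8 called genes named here from both lists (adjusted p = 0.0447).

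The calls rested on single libraries to different degrees. Without UDI0051, UDI0053 or UDI0054, CCNG1 and TP53INP1 were the 2 members that passed, where 2.03%, 3.31% and 3.49% of all genes fell. Without UDI0055 the count was 9 lower and 2 higher, XPC and AEN, where 12.6% of all genes fell and 11.1% rose. With the rows at 0 kept as counts, 0 of the 29 passed, where 0.891% of all genes fell and 0.157% rose at the same adjusted threshold. At an unadjusted p under 0.05, 11 members were lower and 1 higher in that fit. The share of all genes at that unadjusted threshold is not given for it. The log2 fold changes there were −0.99 for CCNG1 and −1.05 for TP53INP1, and the adjusted p 0.0568 and 0.0592, with 0.0602 for FAS, 0.0741 for GDF15 and 0.113 for RRM2B.

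**Figure D5:**
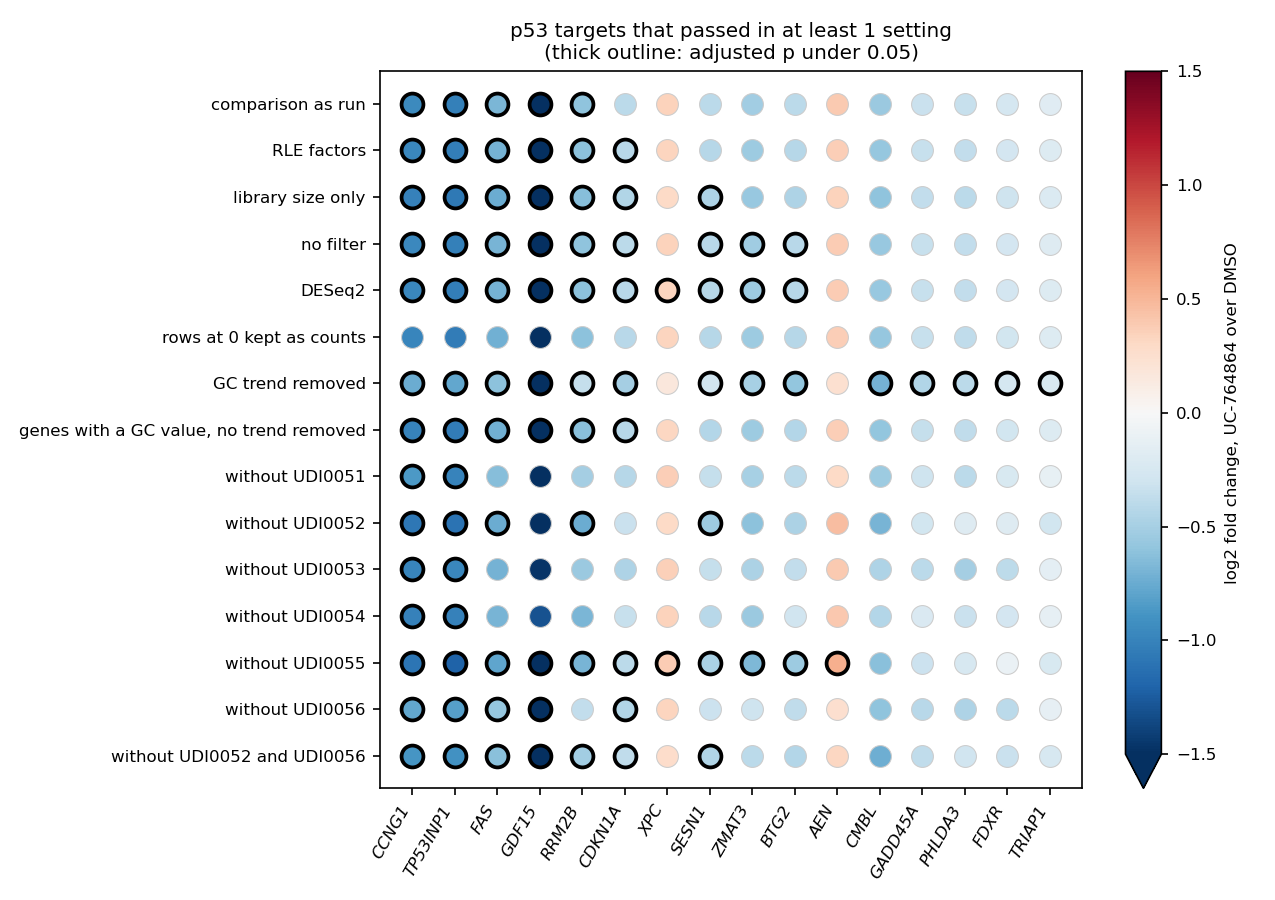
Log2 fold change (colour) of the 16 p53 targets that passed in at least 1 setting (columns, in order of p) under the comparison as run and 14 other settings (rows); a thick outline marks an adjusted p under 0.05. CCNG1 and TP53INP1 are outlined in every row but the one with the rows at 0 kept as counts, CDKN1A in 9 of the 14 other settings, and each gene keeps 1 colour side throughout.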

How the data were processed

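The authors deposited whole-number counts per gene symbol for 6 libraries, not normalized. The submitters' processing notes name GRCh37, HISAT2 2.0.5, featureCounts 1.5.2 and FastQC 0.11.7 without roles; reads were 75 bp paired ends, per the labels' protocols. For the annotation release and the strand setting, nothing is given in the sources used here. Per the deposited metadata table, each column has a treatment and no replicate number, so nothing was paired.

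Rows in unbroken runs of 0 in 1 library (at least 10 rows with 50 counts in each other library) were read as missing, leaving 52839 rows. The test was edgeR 4.0.16 under R 4.3.3: filterByExpr kept genes with 0.482 CPM in 3 libraries, and these were scaled by TMM factors (0.978 to 1.03) and tested by glmQLFTest with treatment as the only term over 13490 genes, Benjamini-Hochberg threshold 0.05. The script was tested on simulated data. Each log2 fold change has UC-764864 on top, and its SE was obtained by dividing it by the root of the F statistic. No library pair came down to sampling noise. The chi-square per degree of freedom was 4.40 to 16.3 within UC-764864, 18.3 to 41 within DMSO and 17.8 to 78.8 between the groups.

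The members and lists were chosen with earlier results of these data known. All members are accounted for; values per library are given for called members, MDM2, MDM4, CDKN1A and the 2 members of each role with the smallest p, and up to 4 called genes of each other list are named; 1 further gene of that rule is not reported here. GC content and exon lengths came from GENCODE 29 transcripts (GRCh38) matched by symbol, for 12172 tested genes and all 29 tested members. Alternatives were RLE factors, library size only, no filter, DESeq2 1.42.0, rows at 0 kept, the GC trend removed (loess, span 0.5), and libraries left out. The floor of 3 counts covers counting error only, since no source names molecular identifiers.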

Additional observations from a re-analysis of the deposited data

How the results depend on the processing

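The count of p53 targets that fell, 5 in the comparison as run, was 9 with no filter (of 32 tested) and with DESeq2, 14 with the GC trend removed, and 0 with the rows at 0 kept as counts; leaving out 1 library gave 2 to 9. The count that rose, 0 as run, was 1 with DESeq2 and 0 to 2 without 1 library. Over all genes, 1097 fell and 690 rose as run. No filter gave 1676 lower (6.89% of 24326 genes) and DESeq2 1379 lower (10.2%). The GC trend removed gave 2215 lower and 1660 higher (18.2% and 13.6%). The rows at 0 kept as counts gave 125 lower and 22 higher (0.891% and 0.157%). Leaving out 1 library gave 278 to 1729 lower (2.03% to 12.6%) and 62 to 1525 higher (0.452% to 11.1%). The causes were not tested. With RLE factors, library size only, or without UDI0052 and UDI0056, 6, 7 and 7 members fell. Of all genes, 8.61%, 9.42% and 8.98% fell in those settings. Among the genes with a GC value with no trend removed, a setting chosen after seeing the data, 6 members and 9.14% of genes fell. All 5 members called as run passed in each of these 4 settings. With library size only, rises were 508 and falls 1271.

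Direction changed only for members near 0, none with an adjusted p under 0.05. TNFRSF10B stood at −0.02 with RLE factors, DESeq2 and the rows at 0 kept, −0.04 with library size only, −0.01 with no filter, −0.18 with the GC trend removed, −0.03 among genes with a GC value and from −0.03 to 0.02 without 1 library, and at 0.00 without UDI0052 and UDI0056. FBXO22 was at −0.01 with library size only and from −0.04 to 0.08 without 1 library. ACER2 was at −0.02 with library size only, 0.00 with the rows at 0 kept, −0.11 with the GC trend removed and from −0.04 to 0.09 without 1 library. DRAM1 was at −0.02 with library size only, −0.04 with the GC trend removed, −0.01 among genes with a GC value, −0.07 without UDI0052 and UDI0056 and from −0.14 to 0.11 without 1 library. PPM1D was at −0.03 and RPS27L at 0.03 with the GC trend removed, and RPS27L at 0.01 without UDI0052 and UDI0056 and from −0.17 to 0.10 without 1 library. No paired analysis was possible because the columns of the count table carry no replicate number. Members under 1 CPM, such as PERP, are limited by depth.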

Other observations

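Relatives of some members, chosen after their values were seen, are given as values. The sestrin gene SESN3 had 6.58, 8.16 and 5.95 CPM in UC-764864 libraries, against 11.5, 8.55 and 15.7 CPM in DMSO libraries, and fell 1.72-fold (−0.78 ± 0.22, edgeR adjusted p = 0.0358). Its groups did not overlap, though UDI0052 and UDI0055 nearly met. The call was lost without UDI0051, UDI0053, UDI0054 or UDI0056 (adjusted p from 0.0584 to 0.12). SESN2, which stress kinases of the ATF4 pathway also raise, stood at −0.40 ± 0.14 and did not pass (adjusted p = 0.0701), beside SESN1 at −0.41. BTG1, the relative of BTG2, had 63.1, 73.7 and 70.4 CPM in UC-764864 libraries, against 85, 91.1 and 97.1 CPM in DMSO libraries, and fell 1.32-fold (−0.40 ± 0.12, adjusted p = 0.0427). With the GC trend removed BTG1 stood at −0.24 (adjusted p = 0.0358), and the call was lost without UDI0051, UDI0053, UDI0054 or UDI0056 (adjusted p from 0.0742 to 0.245). The decoy TRAIL receptor genes TNFRSF10C and TNFRSF10D stood at −0.92 ± 0.32 and −0.29 ± 0.11 and did not pass (edgeR adjusted p = 0.0719 and 0.104). For both, all UC-764864 libraries lay below the DMSO libraries. Their relative TNFRSF10B stood at 0.00. TNFRSF10A stood at 0.19 with all UC-764864 libraries above the DMSO libraries, but at 0.01 with the GC trend removed (edgeR adjusted p = 0.924). The difference between these receptors was not tested. TNFRSF10C averaged 0.501 ± 0.0879 CPM under UC-764864 and 0.94 ± 0.143 CPM under DMSO, and TNFRSF10D averaged 64.6 ± 4.29 CPM under UC-764864 and 78.9 ± 3.84 CPM under DMSO. In UDI0051, TNFRSF10C had 0.406 CPM, under the filter's 0.482 CPM, so its DMSO counts were needed for it to be tested.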
